A study of Homo sapiens with 8 samples.

Results

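The genes described here encode the constitutive proteasome and its regulators. They were chosen by name, as the rows whose symbol begins with PSMA, PSMB, PSMC, PSMD, PSME, PSMF or PSMG and a number, without the interferon-inducible catalytic subunits PSMB8, PSMB9 and PSMB10. The rule found 44 of the 9245 mRNA entries. One of them, PSMC3IP, matches by its letters only and encodes a cofactor of meiotic recombination, so it was placed in no class, and 43 members remain without it. The others fall into 7 subunits of the alpha ring, 7 of the beta ring, 6 ATPases, 3 base subunits without ATPase activity, 8 lid subunits, 7 assembly chaperones, 4 activators and 1 inhibitor.

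The proteasome degrades proteins marked with ubiquitin. Its core particle is a barrel of stacked alpha and beta rings with the proteolytic sites inside, and its regulatory particle recognises the ubiquitin chain, removes it and threads the substrate inward with a ring of ATPases. Dedicated chaperones assemble both particles and leave the finished complex. The subunits are needed in fixed proportions, and cells are known to adjust their mRNAs together, among other ways through the transcription factor NFE2L1.

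The cells were SK-BR-3, an immortal line from a human mammary carcinoma that overexpresses ERBB2. The 8 libraries were wild-type cells, cells lacking mir-141, cells lacking mir-200c and double knockout cells lacking both, with 2 libraries per group. Each group had 1 library in set 1 and 1 in set 2, and the knockouts had been made with TALENs, which are designed nucleases. Every knockout library was a single clone, numbered 23 (mir-141), 11 (mir-200c) and 55 (double) in set 1 and 10, 29 and 61 in set 2, so clone and set cannot be told apart within a group. The labels name no treatment, time or further allele for any group.

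Both microRNAs are processed from neighbouring hairpins on chromosome 12. The mature forms are shown because their seeds, bases 2 to 8 in capitals, differ at a single base and define the sites searched for below (RefSeq, GRCh38.p14, plus strand, 12, 6963742 to 6963764 and 6964155 to 6964176).

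hsa-miR-200c-3p: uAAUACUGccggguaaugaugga
hsa-miR-141-3p: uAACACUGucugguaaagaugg

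Values are log2 ratios of a knockout clone to the wild type of its own set. The wild type is 0 by construction, expression levels and depth are unknown, and the clones of a set share 1 wild-type library. A ratio beyond 0.3 in size, a 1.23-fold change, is counted below without a test where there is 1 library per group. Less RNA per cell and fewer cells of a kind cannot be told apart in such bulk libraries. Across all rows the ratios of set 1 and set 2 were unrelated, with Pearson correlations between −0.0022 and 0.0105 over 9 pairs of clones. Among the members they lay between −0.17 and 0.22. Set 2 values are therefore given as listed beside each name; whether they stand beside the right names was not tested. Of the markers of SK-BR-3, ERBB2, EPCAM, GATA3 and keratins KRT8, KRT18 and KRT19, the ratios in set 1 lay between −0.24 and 0.54. Ratios do not show whether a marker is present.

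Ratios of the proteasome genes were small in set 1. The median of the 44 members was −0.06 without mir-141, −0.17 without mir-200c and −0.08 without either, against −0.01, −0.02 and −0.03 over all rows. Their interquartile range was 0.202, 0.308 and 0.207, against 0.265, 0.458 and 0.375 over all rows. In set 2 as listed the interquartile range of the members was 0.370, 0.328 and 0.498, beside 0.371, 0.337 and 0.437 over all rows. The members were thus closer together than all rows in every clone of set 1, and about as far apart as all rows, or further, in set 2. These are descriptions of single libraries, with no test.

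**Figure D1:**
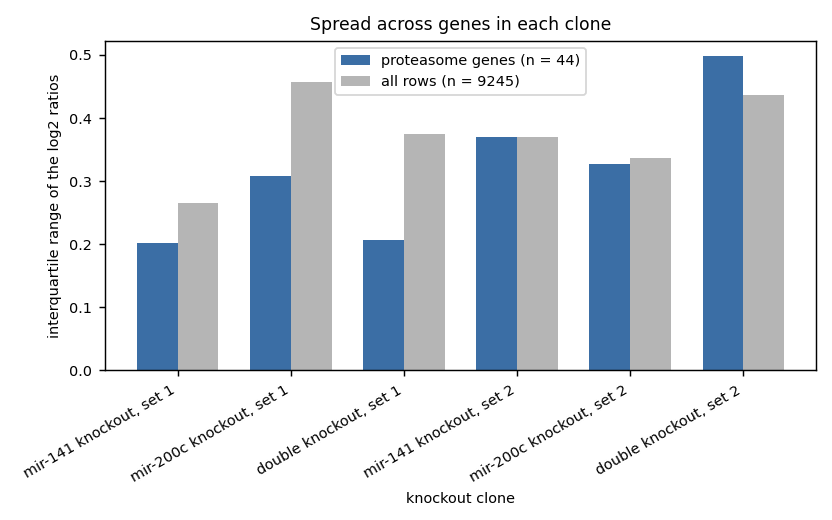
Interquartile range of the log2 ratios (vertical axis) in each of the 6 knockout clones, for the 44 proteasome genes (blue bars) and all 9245 rows (grey bars). The blue bar is shorter than the grey one in the 3 clones of set 1 (0.207 against 0.375 in the double knockout) and longer in the double knockout of set 2 (0.498 against 0.437).

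In the mir-141 knockout of set 1, 1 member lay above 0.3 and 2 lay below −0.3, which is 1 of 44 and 2 of 44 against 9.52% and 8.72% of all rows. Without mir-200c 3 lay above and 9 below, against 18.9% and 19.5% of all rows. Without either 1 lay above and 7 below, against 14.9% and 15.0% of all rows. The share above 0.3 was below that of all rows in each clone, and the share below −0.3 was near that of all rows in the mir-200c and double knockouts. In the double knockout 4 members instead of 7 lay below −0.3 once its column was shifted to a median of 0. In set 2 as listed, 5, 5 and 5 members lay above 0.3 in the 3 knockouts, where all rows gave 15.6%, 13.8% and 17.6%. There 8, 7 and 14 lay below −0.3, where all rows gave 14.4%, 13.1% and 19.2%.

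**Figure D2:**
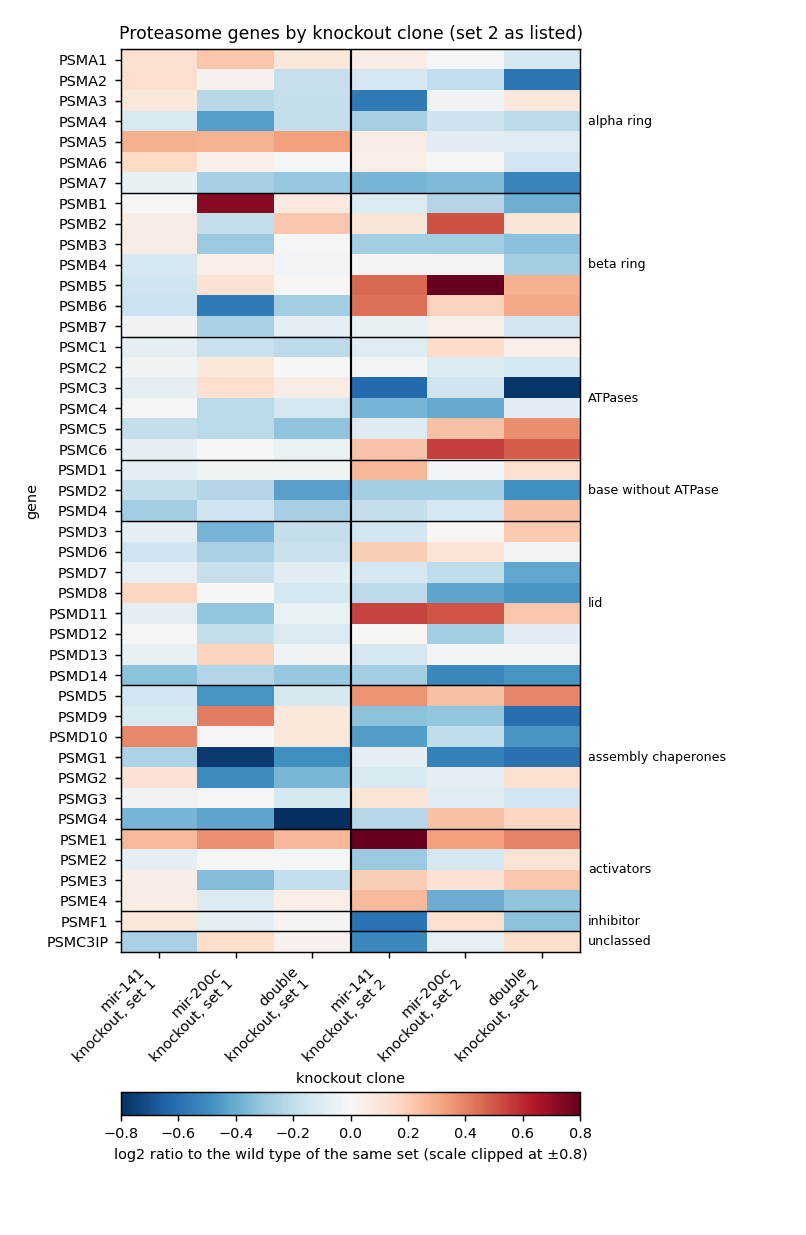
Log2 ratio of each of the 44 genes (rows, grouped by class) to its own wild-type library, in the 6 knockout clones (columns, set 1 left of the vertical line and set 2 as listed right of it). Blue is below the wild type and red above it, and colours are clipped at ±0.8; PSMG1 is blue in all columns (−0.76 in the mir-200c knockout of set 1) and PSME1 red in all (1.13 in the mir-141 knockout of set 2).

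The lowest ratio in each clone of set 1 was that of an assembly chaperone. PSMG1 and PSMG2 form a dimer that starts the alpha ring, and PSMG3 and PSMG4 form a second dimer that acts on the same ring. PSMG1 (chromosome 21, 39174769 to 39183851 on GRCh38) gave −0.25 without mir-141, −0.76 without mir-200c and −0.49 without either in set 1, and its set 2 entries in the same order were −0.08, −0.54 and −0.60. It was below the wild type in all clones, least so in both mir-141 knockouts. Values of other genes follow this order of clones. PSMG4 (chromosome 6, 3231403 to 3303373) had −0.37, −0.42 and −0.92 in set 1, the lowest value of any member in the double knockout. PSMG4 was the one member beyond 0.3 in the same direction in all clones of set 1. These clones share a wild type, and how many of all rows show this pattern was not counted. The set 2 entries of PSMG4 were −0.23, 0.23 and 0.16. PSMG2 (chromosome 18, 12658043 to 12725740) had 0.12, −0.51 and −0.36 in set 1, so it lay above the wild type without mir-141 alone and below it in both clones that lack mir-200c. Its set 2 entries were −0.12, −0.08 and 0.13. PSMG3, the partner of PSMG4, had −0.03, −0.02 and −0.13 in set 1.

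The chaperones of the ATPase ring differed among themselves. PSMD5 had −0.16, −0.47 and −0.13 in set 1, and PSMD9 had −0.12, 0.41 and 0.09, the second highest member in the mir-200c knockout. PSMD10, also known as the oncoprotein gankyrin, had 0.39, −0.01 and 0.09 and was the highest member in the mir-141 knockout. In set 2 these 3 were listed at 0.36, 0.23 and 0.39 (PSMD5), −0.33, −0.31 and −0.60 (PSMD9) and −0.45, −0.20 and −0.47 (PSMD10), each with the other sign for most clones. As a class the 7 chaperones had medians of −0.12, −0.42 and −0.13 in set 1, and −0.12, −0.09 and −0.15 in set 2 as listed. In the mir-200c knockout of set 1, 4 of the 9 members below −0.3 were chaperones. That is 4 of 7 chaperones, against 19.5% of all rows. In the mir-200c knockout of set 2, 2 of 7 lay below −0.3, against 13.1% of all rows.

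In the alpha ring, which gates the core, the medians were 0.13, 0.04 and −0.19 in the 3 knockouts of set 1. PSMA5 was the member with the most even positive values, at 0.28, 0.28 and 0.33, and was the highest in the double knockout. Its set 2 entries were 0.06, −0.09 and −0.10. PSMA7 stood at −0.06, −0.27 and −0.30 in set 1, with −0.37, −0.36 and −0.53 listed for set 2, below the wild type throughout. PSMA4 was also below it throughout, at −0.12, −0.44 and −0.19 and at −0.26, −0.16 and −0.21. The same held for PSMG1, PSMC4, PSMD2, PSMD7 and PSMD14. How many of all rows keep one sign in all clones was not counted. PSMA1, PSMA2, PSMA3 and PSMA6 lay between −0.22 and 0.22 in set 1.

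The beta ring carries the proteolytic sites. Its medians in set 1 were −0.03, −0.19 and −0.01. PSMB6, the caspase-like subunit (chromosome 17, 4796144 to 4798503), stood at −0.17, −0.56 and −0.28 in set 1, with 0.44, 0.18 and 0.30 listed for set 2. PSMB7, the trypsin-like subunit, stood at −0.03, −0.26 and −0.07 in set 1, with −0.06, 0.05 and −0.15 listed for set 2. PSMB5, the chymotrypsin-like subunit and main target of bortezomib, stood at −0.16, 0.12 and 0.01 in set 1, with 0.46, 1.06 and 0.29 listed for set 2. The proteolytic subunits thus did not share a direction in the mir-200c knockout of set 1. Among the structural subunits, PSMB1 (chromosome 6, 170535117 to 170553341) had 0.01, 0.73 and 0.08, the highest ratio of any member in set 1, seen in the mir-200c knockout and not in the double knockout. PSMB2 had 0.06, −0.19 and 0.21, PSMB3 had 0.06, −0.29 and −0.01, and PSMB4 had −0.14, 0.05 and −0.02.

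The inducible subunits replace the 3 proteolytic ones in the immunoproteasome, and 2 of them were measured. PSMB8, which takes the place of PSMB5, had 0.88, 1.97 and 0.78 in set 1, and PSMB10, which takes that of PSMB7, had 0.07, 0.38 and 0.24. In the mir-200c knockout of set 1 PSMB8 thus lay far above PSMB5 (0.12), and PSMB10 above PSMB7 (−0.26). The double knockout minus the mir-141 knockout of set 1 was −0.10 for PSMB8 and 0.17 for PSMB10. In the additive fit of set 1 given below, loss of mir-200c was 0.93 ± 0.49 for PSMB8 (limma, adjusted p = 0.476). For PSMB10 it was 0.27 ± 0.14 (limma, adjusted p = 0.461). In set 2 PSMB8 was listed at 0.34, 0.28 and 0.43 and PSMB10 at 0.12, −0.25 and −0.07.

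All 6 ATPases were measured, and their ratios were small in set 1. Their medians were −0.08, −0.09 and −0.10. PSMC5 was lowest in the double knockout, with −0.19, −0.21 and −0.32. Its set 2 entries were −0.11, 0.23 and 0.37. PSMC1 had −0.08, −0.18 and −0.21, and PSMC4 had −0.01, −0.22 and −0.14. These ATPases were thus lower in both clones of set 1 without mir-200c than in its mir-141 knockout, and the other ATPases were higher. In set 2 PSMC1 was listed at −0.10, 0.15 and 0.04 and PSMC4 at −0.37, −0.40 and −0.09. There PSMC1 and PSMC5 had the other order, and PSMC4 was lower in the mir-200c knockout only. PSMC2 (−0.03, 0.08 and −0.01), PSMC3 (−0.07, 0.14 and 0.06) and PSMC6 (−0.08, −0.01 and −0.05) lay between −0.08 and 0.14 in set 1. In set 2 as listed the ATPases lay further apart, from −0.78 (PSMC3, double knockout) to 0.55 (PSMC6, mir-200c knockout).

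The base also holds PSMD1 and PSMD2, the large scaffolds that bind ubiquitin shuttles, and PSMD4, a ubiquitin receptor. PSMD2 (chromosome 3, 184298709 to 184309054) stood at −0.19, −0.23 and −0.43 in set 1, with −0.27, −0.27 and −0.49 listed for set 2, so in each set the double knockout was lowest. PSMD4 stood at −0.28, −0.16 and −0.26 in set 1, with −0.19, −0.14 and 0.24 listed for set 2. PSMD1 stood at −0.08, −0.04 and −0.04 in set 1, with 0.27, −0.02 and 0.13 listed for set 2.

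The lid clasps the side of the regulatory particle and carries PSMD14, the metalloprotease that cuts the ubiquitin chain from the substrate. PSMD14 (chromosome 2, 161308038 to 161411717) stood at −0.33, −0.24 and −0.30 in set 1, with −0.27, −0.51 and −0.47 listed for set 2. It was below the wild type of its set in all clones. PSMD7, its partner in the lid, stood at −0.06, −0.19 and −0.09 in set 1, with −0.14, −0.20 and −0.41 listed for set 2. The 8 lid subunits had medians of −0.07, −0.21 and −0.13 in set 1, with 7, 7 and 8 of 8 below 0. Over all rows 4794, 4809 and 4968 of 9245 were below 0 in these clones. In set 2 as listed the lid medians were −0.13, −0.11 and −0.05, with 5, 5 and 6 of 8 below 0. Values of the 6 scaffold subunits of the lid are given for the mir-200c knockout of set 1. They ranged from −0.37 (PSMD3) through −0.31 (PSMD11), −0.26 (PSMD6), −0.19 (PSMD12) and −0.0036 (PSMD8) to 0.18 (PSMD13).

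The activators open the core without ATP. PSME1 (chromosome 14, 24136158 to 24138967) stood at 0.26, 0.37 and 0.27 in set 1, with 1.13, 0.33 and 0.40 listed for set 2, above the wild type in all clones. PSME2, the partner with which PSME1 forms an interferon-inducible ring, stood at −0.07, 0.01 and −0.02 in set 1, with −0.30, −0.13 and 0.11 listed for set 2. The partners, whose genes lie close together on chromosome 14, therefore did not share a level of ratio. PSME3, a nuclear activator, stood at 0.06, −0.35 and −0.20 in set 1, with 0.19, 0.11 and 0.22 listed for set 2. PSME4, the large activator known for degrading acetylated histones, stood at 0.06, −0.11 and 0.05 in set 1, with 0.26, −0.40 and −0.32 listed for set 2. PSMF1, a protein that inhibits the core in vitro, stood at 0.08, −0.08 and 0.02 in set 1, with −0.59, 0.13 and −0.33 listed for set 2. The unclassed PSMC3IP had −0.26, 0.14 and 0.03 in set 1.

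**Figure D3:**
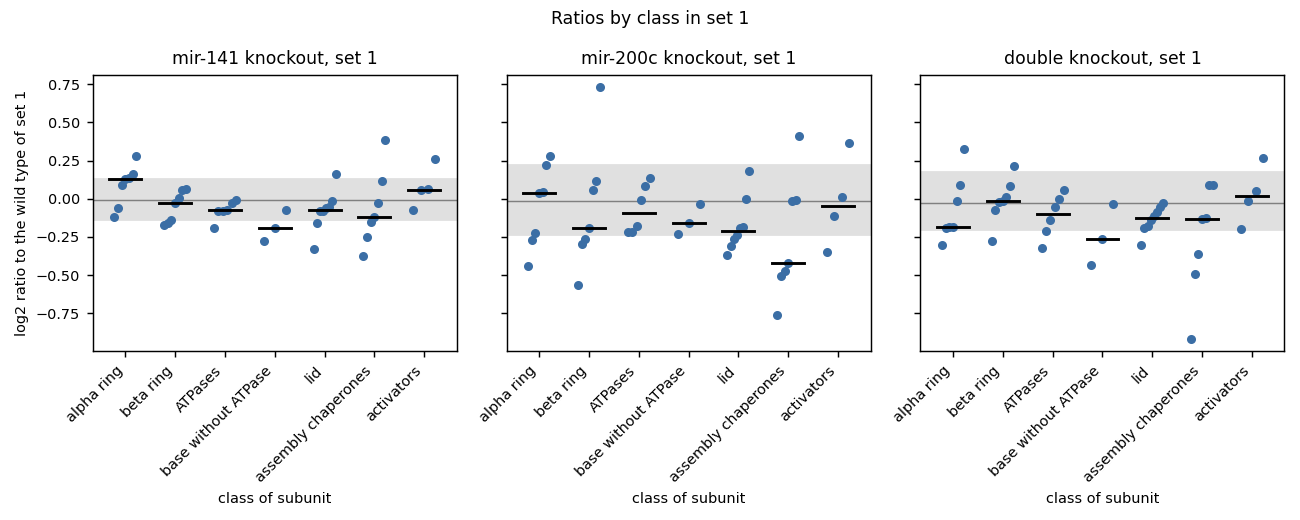
Log2 ratio to the wild type of set 1 (vertical axis) for each member (points, ordered by value within a class) by class, in the mir-141 (left), mir-200c (middle) and double knockout (right). Black bars are class medians, and the grey band and line are the interquartile range and median of all rows; in the mir-200c knockout the median of the assembly chaperones (−0.42) lies below the band.

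Core and regulatory particle were compared in set 1. The 17 subunits of the regulatory particle had medians of −0.08, −0.19 and −0.14 in the 3 knockouts, and the 14 core subunits had 0.03, −0.08 and −0.02. Of the regulatory subunits 16, 14 and 16 of 17 were below 0, against 6, 7 and 9 of 14 in the core. Over all rows 51.9%, 52.0% and 53.7% were below 0. The regulatory particle was thus the lower in each clone of set 1. In set 2 as listed the medians were −0.13, −0.11 and −0.02 for the regulatory particle and −0.02, −0.02 and −0.15 for the core. The order was thus the other in the double knockout. In set 2, 12, 11 and 10 of 17 regulatory subunits and 7, 8 and 10 of 14 core subunits were below 0. Over all rows these shares were 54.2%, 52.1% and 54.1%. The clones of a set share a wild type, and no test was made of these class differences.

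Loss of mir-200c can be read in set 1 from libraries that are not shared: the mir-200c knockout against the wild type, and the double knockout against the mir-141 knockout. Across the 44 members these differences had a Pearson correlation of 0.50 and a Spearman correlation of 0.52, and 34 members (77.3%) had the same sign in both. Over all rows the values were 0.34, 0.35 and 63.0%. The genes share their libraries within each difference, so these figures describe 4 libraries. PSMG1 had −0.76 and −0.24, PSMG2 had −0.51 and −0.48, and PSMG4 had −0.42 and −0.54, which put these chaperones low in both. PSMD9 was high in both, with 0.41 and 0.21. By contrast PSMB1 had 0.73 and 0.07, PSMD5 had −0.47 and 0.03, and PSMB6 had −0.56 and −0.11, so their size came mostly from the first difference. For loss of mir-141, read in the same way, the Pearson correlation across members was 0.13 and 27 members (61.4%) had the same sign, against 0.18 and 51.8% over all rows. PSMG4 was low there too, with −0.37 and −0.49.

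**Figure D4:**
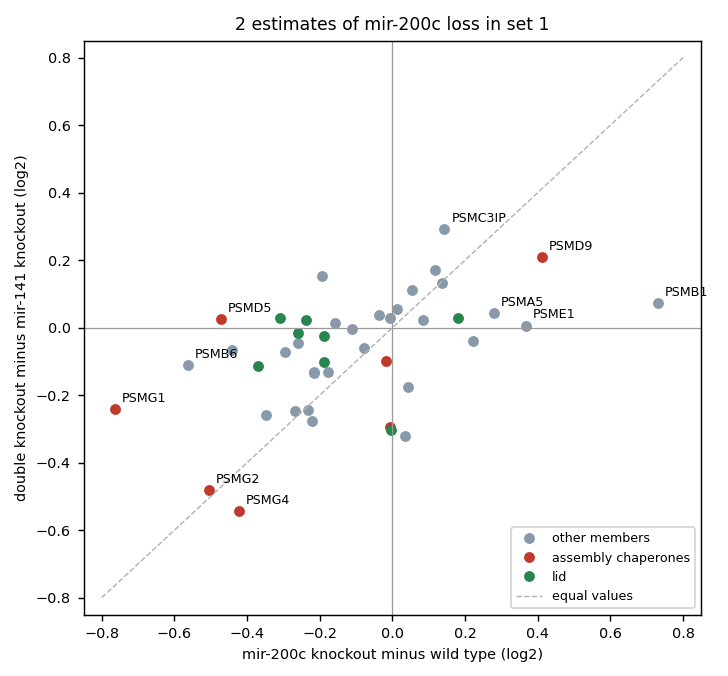
Log2 difference between the double and the mir-141 knockout of set 1 (vertical axis) against that between the mir-200c knockout and the wild type (horizontal axis), 1 point per member, with assembly chaperones in red, lid subunits in green and the others in grey. PSMG1, PSMG2 and PSMG4 lie in the lower left, while PSMB1 lies far right near the horizontal line (0.73 and 0.07).

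An additive model of both losses was fitted with limma to the 4 libraries of set 1 for all rows, so that the error of a gene comes from its departure from additivity and from the spread over genes. For loss of mir-200c the estimate was −0.50 ± 0.18 (SE, 4 libraries) for PSMG1, −0.49 ± 0.13 for PSMG2 and −0.48 ± 0.13 for PSMG4. The smallest adjusted p of a member was 0.385, and 0 of 44 members were called, as were 0% of all rows. At an unadjusted p under 0.05 there were 3 members, these chaperones, against 1113 rows (12.0%), so the members' share was not above that of all rows. How large a change this fit could call depends on the spread assumed: on simulated data it called 0% of rows changed by 1 or by 2 under one assumed spread and 77% and 99% under another. A count of 0 is thus no measure of stability. PSME3 (−0.30 ± 0.13), PSMB6 (−0.34 ± 0.16), PSMD9 (0.31 ± 0.13) and PSMB1 (0.40 ± 0.20) followed. For loss of mir-141 PSMG4 had −0.43 ± 0.13 (limma, adjusted p = 0.699), and 0 members and 0% of all rows were called. There 1 of 44 members and 587 rows (6.35%) were at an unadjusted p under 0.05.

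**Figure D5:**
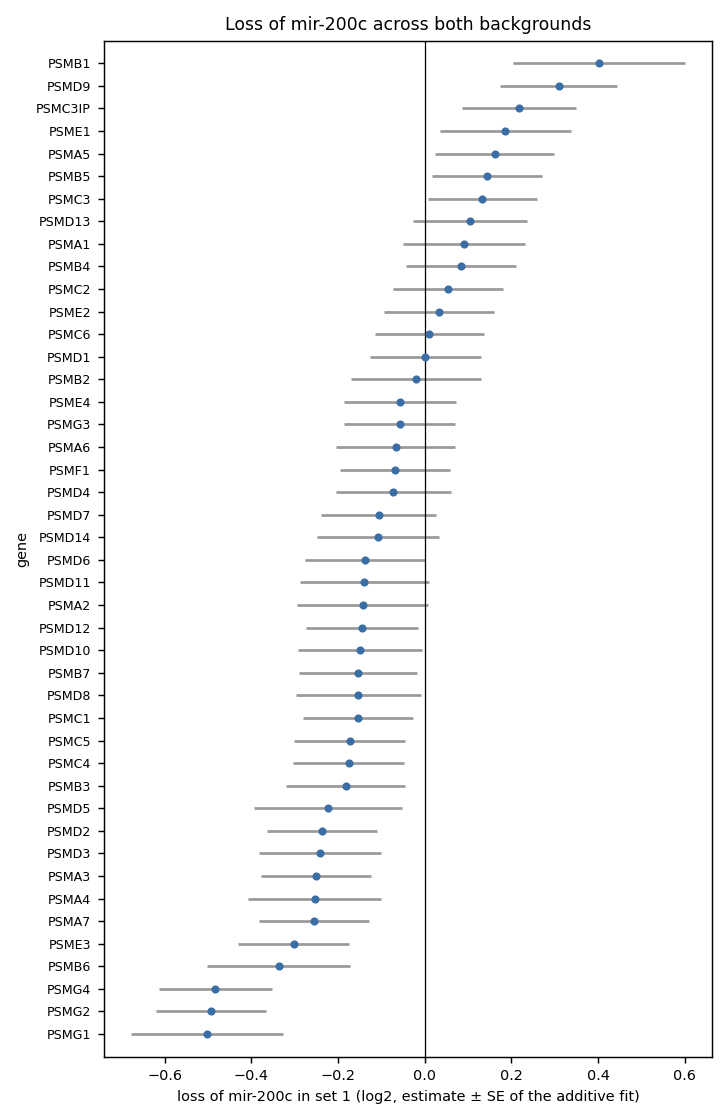
Estimated loss of mir-200c in set 1 (horizontal axis, log2) for each of the 44 members, with bars of ± 1 standard error of the additive fit to 4 libraries. PSMG1, PSMG2 and PSMG4 lie at −0.50, −0.49 and −0.48 and PSMB1 at 0.40; no member passed the threshold after adjustment.

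The same fit to set 2 as listed called 0 members and 0% of all rows for either loss. PSMG1 had −0.53 ± 0.11 for loss of mir-200c there, close to its value of −0.50 in set 1, at a limma adjusted p of 0.434. In the same fit PSMG2 had 0.09 ± 0.14, within 1 SE of 0 and at a limma adjusted p of 0.828, and PSMG4 had 0.31 ± 0.11, at 0.465. Neither estimate was below 0 there, as both were in set 1. For loss of mir-141, PSMC3 had the smallest p of the members (−0.62 ± 0.11, limma adjusted p = 0.571). At an unadjusted p under 0.05 there were 3 of 44 members for each loss in set 2, against 1012 rows (10.9%) for mir-200c and 770 (8.33%) for mir-141. The members' share was thus not above that of all rows.

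Over both sets, each knockout group was compared with the wild type with the set as a block. Limma called 0 members and 0% of all rows in the 3 knockouts. At an unadjusted p under 0.05 there were 2, 3 and 5 of 44 members, against 248 (2.68%), 499 (5.4%) and 581 (6.28%) of all rows. These shares were not compared by a test. In the double knockout the members were PSMG1 (−0.54 ± 0.15, SE of the pooled fit, 2 clones), PSMD2 (−0.46 ± 0.14), PSMA7 (−0.42 ± 0.15), PSMD14 (−0.39 ± 0.15) and PSMA2 (−0.39 ± 0.16), with a limma adjusted p of 0.740 each. In the mir-200c knockout they were PSMG1 (−0.65 ± 0.15), PSMB5 (0.59 ± 0.24) and PSMD14 (−0.37 ± 0.15), at a limma adjusted p of 0.793. In the mir-141 knockout they were PSME1 (0.69 ± 0.24) and PSMC3IP (−0.39 ± 0.16), at 0.998. Several of these means join unequal clones. PSMB5 was at 0.12 in the mir-200c clone of set 1 and 1.06 in that of set 2, and PSMD14 at −0.24 and −0.51. PSME1 was at 0.26 and 1.13 in the mir-141 clones, and PSMA2 at −0.19 and −0.58 in the double knockouts. If names and values of set 2 do not belong together, these means combine different genes.

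Seed sites were looked for in the longest annotated 3′ untranslated region of each gene (GENCODE 29). Of the 44 members, 3 (6.82%) held CAGTATT, the match to bases 2 to 8 of miR-200c-3p, against 18.2% of 9207 rows with such a region. The match to miR-141-3p, CAGTGTT, was found in 7 members (15.9%) against 20.9% of rows. The members' regions are short, with a median of 381 bases against 1305 over all rows. The matches of the 3 members with a miR-200c-3p site, and of PSMA5 and PSMD9, are shown in capitals because these genes include the lowest and some of the highest members.

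PSMG4, miR-200c-3p: caggaactcgCAGTATTctttttccct
PSMG4, miR-200c-3p: acggggcctgCAGTATTtcaggagtgg
PSME4, miR-200c-3p: ggtcctggtaCAGTATTtaagtgtcgg
PSMF1, miR-200c-3p: tggaatcactCAGTATTatggcctttt
PSMA5, miR-141-3p: gccaaaaggaCAGTGTTattaatatcc
PSMA5, miR-141-3p: cagccatcaaCAGTGTTgtaccagttc
PSMD9, miR-141-3p: tccatggtatCAGTGTTcatttcccca

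They start at bases 827 and 3723 (PSMG4), 1403 (PSME4), 2525 (PSMF1), 384 and 682 (PSMA5) and 1193 (PSMD9) of the region. MicroRNAs are known to lower the mRNAs they pair with. PSMG4, with 2 miR-200c-3p matches, was below the wild type in the mir-200c knockout of set 1 (−0.42), as were PSME4 (−0.11) and PSMF1 (−0.08). In the mir-200c knockout of set 2 they were listed at 0.23 (PSMG4), −0.40 (PSME4) and 0.13 (PSMF1). In set 1 PSMA5, with 2 miR-141-3p matches, was at 0.28 in the mir-141 knockout and also at 0.28 in the mir-200c knockout. The latter lacks mir-200c only. In the mir-141 knockout of set 2 PSMA5 was listed at 0.06. PSMD9 was below the wild type (−0.12) in the mir-141 knockout of set 1. Other members with the miR-141-3p match were PSMA4, PSMB2, PSMD5, PSMD11 and PSMF1, at −0.12, 0.06, −0.16, −0.08 and 0.08 in that clone. The 9 members with either match had medians of −0.08, −0.19 and 0.02 in the clones of set 1, and the 35 with neither had −0.06, −0.16 and −0.11. For set 2 the medians were 0.06, 0.13 and −0.10 with a match and −0.11, −0.08 and −0.09 without. The order was thus the other way from set 1 in each knockout, though narrowly in the double knockout (−0.0969 and −0.0921). A match is a description of letters and not a site shown to act.

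Promoter windows around the start were in the RefSeq table (GRCh38.p14) for 38 members. The antioxidant response element TGACNNNGC, known to be bound by NFE2L1 and NFE2L2, was found on either strand in 12 of them (31.6%), against 15.7% of 7110 promoters of measured genes and 13.4% of all 35116. The ETS core CCGGAAG was in 13 (34.2%, against 21.5% and 10.3%), 6 of them lid subunits, and CCAAT was in 18 (47.4%, against 37.6% and 34.6%). Each motif was counted on both strands, whether or not it overlapped another. These motifs were chosen after the data were seen. The matches of 2 chaperones that were low with loss of mir-200c, of the lid subunit PSMD3 and of PSME1 are shown with the element in capitals and the coordinates of the whole window, since they lie in members with ratios of either sign.

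PSMG1, minus strand, chr21:39183402-39183701: ccagggcaTGACAGCGCgggcgggc
PSMG2, plus strand, chr18:12658488-12658787: gtttcccgTGACCCCGCggccgctc
PSMD3, plus strand, chr17:39980557-39980856: ccctttgtTGACTCGGCcatcggcc
PSME1, plus strand, chr14:24135944-24136243: ggcagggcTGACCCCGCctcctcca

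They begin at −183, −39, −37 and −86 from the start in the RefSeq table. PSMD3 held a further match at 34, on the opposite strand, which is not shown. In the mir-200c knockout of set 1 the 12 members with the element had a median of −0.20 and the 26 without it −0.04. In the double knockout these medians were −0.08 and −0.05, and in the mir-141 knockout the order was the other, at −0.04 with the element and −0.07 without it. The set 2 entries gave −0.10, −0.21 and 0.01 with it and −0.12, −0.02 and −0.12 without it. Members with the element were thus lower in 3 of the 6 clones and higher in the other three, and no test was made. NFE2L1 had −0.04, 0.30 and 0.15 in the clones of set 1, and NFE2L2 had −0.16, −0.27 and −0.22. Their set 2 entries were −0.27, −0.19 and 0.03 for NFE2L1 and 0.03, 0.18 and 0.31 for NFE2L2.

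All 31 genes of a list of proteasome-associated factors and ubiquitin carriers were measured. Limma called 0 of them in any of these fits. Their medians in set 1 were −0.02, −0.07 and −0.12, and 2, 4 and 1 of the 31 lay above 0.3, where all rows gave 9.52%, 18.9% and 14.9%. Below −0.3 lay 2, 9 and 1 of the 31, where all rows gave 8.72%, 19.5% and 15.0%. None lay beyond 0.3 in the same direction in all clones of set 1, a pattern that was not counted over all rows. The deubiquitinase UCHL5 had −0.05, −0.37 and −0.29 and its receptor on the base, ADRM1, had −0.06, −0.36 and −0.26, whereas the other proteasomal deubiquitinase, USP14, had −0.11, −0.09 and 0.05. POMP, the chaperone that matures the beta ring, had −0.07, 0.43 and −0.25. TXNL1, a redox protein that docks on the proteasome, had 0.78, −0.49 and 0.78 in set 1, with an estimate for loss of mir-141 of 1.02 ± 0.17 (limma, adjusted p = 0.455). In set 2 TXNL1 was entered at −0.39, −0.23 and 0.31, and its estimate for loss of mir-141 was 0.08 ± 0.27 (limma, adjusted p = 0.932), so the mir-141 knockouts of the sets had opposite signs. For the others the set 2 entries were −0.47, −0.32 and −0.51 (UCHL5), −0.20, 0.10 and −0.25 (ADRM1), 0.77, 0.24 and 0.61 (USP14) and −0.12, −0.11 and 0.04 (POMP). UCHL5, ADRM1, USP14, POMP, NFE2L1, NFE2L2 and TXNL1 were singled out after their values were seen.

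Markers of other cells were not near 0 as ratios in every clone. In the 3 knockouts of set 1, the 3 of 5 fibroblast genes that were measured ranged from −0.29 to 0.91, −0.41 to 1.29 and −0.15 to 1.28. In set 2 as listed they ranged from −0.05 to 0.03, −0.19 to 0.10 and −0.17 to 0.04. The 3 of 5 blood cell genes ranged in set 1 from −0.13 to 0.52, −0.54 to 1.05 and −0.48 to 0.40. Their set 2 entries ranged from −0.06 to 0.37, −0.13 to 0.14 and −0.10 to 0.24. The part of other cells in the ratios of the proteasome genes was not tested, and levels at or near 0 cannot be read from ratios.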

How the data were processed

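Per the labels' protocols, oligo(dT) beads selected the mRNA, which was fragmented and sequenced on a HiSeq for 8 libraries. TopHat2 and GRCh37.p10 are named in the submitters' processing notes, and their counting, scaling and filters were not found there. As log2 ratios, clone over same-set wild type, the authors deposited 6 columns for 9245 entries (9241 symbols). Depth is unknown, so no interval or floor that needs it is given. Near-identical pseudogenes exist for some subunits, and how their reads were assigned is likewise not given. Columns of samples outside the series numbered 0.

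Each wild type was entered as 0. With limma 3.58.1 (R 4.3.3), an additive model of both losses was fitted within each set (1 residual degree of freedom), and a model of the 4 groups with set as a block over both sets (3). Adjustment was by Benjamini-Hochberg over all rows, with calls at an adjusted p under 0.05. The labels name the shared set and the ratios were taken within it, so the pairing is built in and could not be checked apart from it. Nothing in the labels says that clones were cultured separately more than once, so p-values measure the spread between these libraries only. The fits were tested on simulated data of 9245 rows, with 100 changed by 1 and 100 by 2 (log2). With row spreads taken from the root mean square of the deposited ratios, loss of mir-200c in set 1 was called for 0% and 0% of them, with 0 false calls, and the mir-200c knockout over both sets for 49% and 85%, with 5 false calls. A second simulation, with variances drawn from the prior of each fit, was added after that result was seen. It called 77% and 99% in set 1, with 26 false calls, and 52% and 96% over both sets, with 12 false calls. The deposited ratios do not settle which spread applies.

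Gene positions are from GENCODE 29 (GRCh38), matched by RefSeq accession or symbol for 9219 rows and all 44 members; ratios were made on another build. Members and lists were chosen with earlier results of these data known. The motifs and seed searches, and the removal of PSMC3IP, were added after the data were seen. Named members were the 3 highest and lowest in each clone of set 1, those beyond 0.3 in one direction in all of them, those called, and 18 fixed by function; other members are given with their class. Alternatives were another size limit, median-shifted columns, robust variance estimation, the ratios without the block, and each library left out.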

Additional observations from a re-analysis of the deposited data

Results flagged for a closer look

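For 5 members all clones of set 1 lay on one side of their wild type and all clones of set 2, as listed, on the other. The mean of set 2 minus that of set 1 was 0.65 for PSMB6 (means of −0.34 and 0.31 in set 1 and set 2), 0.58 for PSMD5 (−0.25 and 0.33), 0.57 for PSMD11 (−0.15 and 0.42), 0.47 for PSMC6 (−0.05 and 0.42) and −0.52 for PSMB1 (0.27 and −0.24). These differences were not tested, and the clones of a set share 1 wild type. Whether set 2 values stand beside the right names was not tested either. The share of all rows with sets on opposite sides in this way was not counted, so 5 members cannot be called many or few. No group had enough libraries to look for a single library that stands apart.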

How the results depend on the processing

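With only 1 clone per group in a set, and with ratios in place of levels, small shifts of these genes cannot be placed firmly. The counts of members called by limma were 0 in all 38 alternatives tried, including the ratios taken as independent values without the replicate block (0 calls in each knockout), median-shifted columns, robust variance estimation and each of the 8 libraries left out of the fit of both sets; the smallest adjusted p of a member over these was 0.385. No library could be left out of the fit within a set, which has 1 residual degree of freedom. Counts beyond a size limit in set 1 moved with the limit. At 0.2 there were 3 members above and 5 below in the mir-141 knockout, 5 and 18 in the mir-200c knockout, and 3 and 10 in the double knockout. At 0.5 there were 0 and 0, 1 and 3, and 0 and 1. The shares of all rows beyond 0.2 and 0.5 were not counted, so these counts cannot be called many or few. In the mir-200c knockout the lower quartile of all rows was itself below −0.2, at −0.24. After shifting each column to a median of 0, 4 members of the double knockout lay below −0.3, and its median was −0.054 instead of −0.081. The mean of its unshifted ratios was −0.108. That shift was at most 0.0272 in set 1 and turned the sign of 5 of 78 ratios of named members, all near 0: PSMC2 and PSME2 in the double knockout, PSMC4 in the mir-141 knockout, and PSMC6 and PSMD10 in the mir-200c knockout. Leaving out PSMC3IP, chosen after seeing the data, kept the medians of set 1 within the spread between both clones of a group and changed no count beyond 0.3 there.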
